A study of Mus musculus with 34 samples.

Results

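The hippocampus of compound mice, which carried the 5XFAD transgenes and lacked Hdac1 in neural cells (Hdac1 cKO; 5XFAD), was compared with the hippocampus of control mice. The comparison held 5 compound and 4 control libraries, 1 library per mouse, or 9 of the 34 samples in the study. Libraries were chosen by their genotype labels alone. The compound mice were Hdac1f/f with Nestin-Cre and 5XFAD and were 13 months old. The control mice were Hdac1f/f without Nestin-Cre and without 5XFAD and were 13 to 14 months old, so the floxed Hdac1 allele was common to both groups and no group carried Nestin-Cre or the transgenes on an unfloxed background. Hippocampi of 6 mice with 5XFAD and Hdac1f/f (5XFAD mice) and of 5 with Hdac1f/f and Nestin-Cre (Hdac1 cKO mice) are also used below. They show where the compound mice differed from a single genotype, and they enter the last comparison and an alternative fit of all 4 hippocampal groups. The 5XFAD mice were 13 months old and the Hdac1 cKO mice 13 to 14 months. The question was which genes differ when the 5XFAD transgenes and the loss of Hdac1 come together. Against controls their parts cannot be told apart, and the comparison with 5XFAD mice bears on Hdac1 loss within the disease model. The tissue was whole hippocampus, in which fewer cells of a type and less RNA per cell cannot be told apart. The compound and 5XFAD libraries carry labels of another form than the control and Hdac1 cKO libraries, as sets deposited separately would, so genotype and set cannot be told apart in the comparison with controls.

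HDAC1 is a histone deacetylase that works in corepressor complexes with its close relative HDAC2, and in neurons it has also been tied to the repair of damaged DNA. Nestin-Cre acts in neural progenitors, so that neurons, astrocytes and oligodendrocytes lose the floxed gene while microglia and blood vessel cells, which do not descend from those progenitors, keep it. The 5XFAD transgenes express mutant human proteins of the amyloid pathway, APP among them, in neurons from a Thy1 promoter cassette and lead to amyloid plaques, around which microglia and astrocytes become reactive. Reactive microglia around plaques are known for switching on the TREM2 and TYROBP receptor pair together with genes for phagocytosis, lysosomes and lipid handling.

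Each library listed 23951 genes in FPKM, a read number scaled to transcript length and to the size of the library. Of these, 14348 whose mean over the 9 mice reached 0.5 FPKM were tested. The libraries read the 3′ ends of transcripts. Read numbers of single libraries were not given in the sources used here, but the spacing of the lowest values placed the depth of the 9 libraries between 0.753 and 2.24 times that of control 1. Pairwise correlations of log2(FPKM + 1) across these genes, which are not independent replicates, ran from 0.938 to 0.946 among the controls, from 0.937 to 0.951 among the compound mice and from 0.930 to 0.943 between the groups. Defining genes of neurons (Snap25, 722 to 871 FPKM), of the CA pyramidal layers (Neurod6, 107 to 165) and of the dentate gyrus (C1ql2, 14.1 to 26.7) were present in all 9 mice. Cd3e, which defines T cells, did not pass 0.111 FPKM, and Drd2 and Adora2a, which define striatum, did not pass 0.242 FPKM. Other members of these lists were expressed: 5 of 13 lymphocyte genes and 5 of 8 striatal genes passed the filter, and the striatal genes summed to 25.4 to 61.4 FPKM in controls and 24.5 to 46.4 in compound mice. The choroid plexus, which lies against the hippocampus, split the libraries largely but not wholly along genotype, as given with the falls below.

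A differentially expressed gene (DEG) had to differ by 1.5-fold or more with an unadjusted limma p under 0.05, a rule with no correction for the number of genes tested. By this rule 318 genes were higher in compound mice (2.22% of the genes tested) and 290 were lower (2.02%). At a Benjamini-Hochberg adjusted p under 0.05 (limma), 90 genes were higher (0.627%) and 5 were lower (0.0348%), and none of these 95 genes overlapped between the groups. Among all genes tested, 395 were higher without overlap (2.75%) and 218 were lower without overlap (1.52%). Of the 90 rises, 43 belonged to lists of microglial, immune or lysosomal genes and 7 to lists of astrocyte genes, which came to 49 in all as 1 was in both, and 40 belonged to no list. The number of tested genes in each of these lists is given below. The median DEG that rose did so by 0.92 on the log2(FPKM + 1) scale and the median DEG that fell differed by -0.83, whereas the median of all genes tested differed by -0.01.

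Not all of these calls held when 1 mouse was left out. Of the rises named in the text, Fkbp1b lost the adjusted call in all 9 such fits, Serpina3n, Irf8, Tgfbr2 and Myadml2 in 7, Grn in 6, C1qb, B2m and Ccl6 in 5, Cd52, Ctsd and C4b in 4, C1qc in 2, and Bcl2a1b, Csf1r, Ctsb, Psmb8 and Lcn2 in 1. Apbb1ip, Msmo1, Mt1 and Mt2, which are named further below, also lost the call in at least 1 such fit. The direction of all these genes held in every fit.

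**Figure D1:**
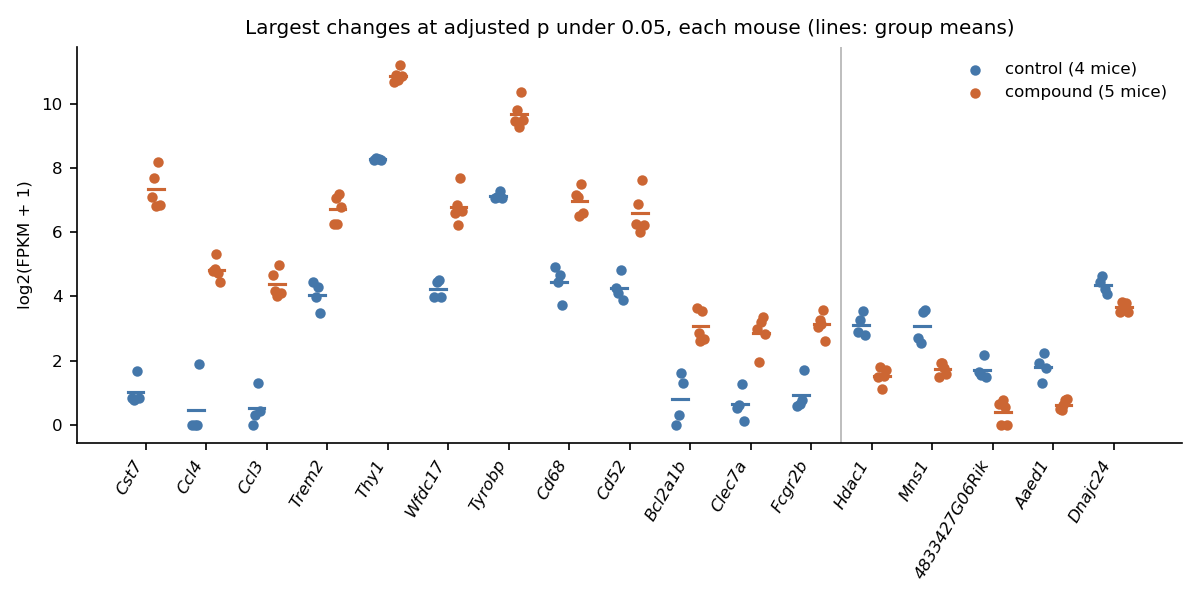
Log2(FPKM + 1) of each mouse for the 12 largest rises and the 5 falls at an adjusted p under 0.05, with control mice in blue, compound mice in orange and group means as lines. No compound mouse overlaps a control mouse in any of the 17 genes.

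Hdac1, the targeted gene (chr4:129193348-129219957, minus strand, mm9), was read at 6.42, 8.71, 10.7 and 5.91 FPKM in the 4 controls and at 1.82, 2.52, 1.15, 1.86 and 2.24 FPKM in the 5 compound mice. The groups did not overlap, and the compound mice retained a level of 1.92 ± 0.52 FPKM (SD, n = 5) against 7.93 ± 2.2 (SD, n = 4). The difference was -1.60 ± 0.20 (SE) on the log2(FPKM + 1) scale, with a limma adjusted p of 0.00266. The place of the deleted exons relative to the 3′ tags was not given in the sources used here, and microglia and vessel cells carry an intact gene. The level was close to that of the Hdac1 cKO mice, which ran from 2.36 to 3.03 FPKM, and below the 5XFAD mice, which ran from 6.10 to 9.64 FPKM.

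Of 25 tested genes for HDAC1, its class I relatives and their corepressor subunits, only Hdac1 passed either rule. Of the 25, 19 were lower, with a median of -0.10, and the mean log2 level of the list, Hdac1 included, was 3.67 to 3.76 in controls and 3.52 to 3.59 in compound mice, without overlap. Hdac2 was read at 23.7, 14.6, 17.4 and 18 FPKM in controls and at 18.8, 23.4, 12.9, 17.6 and 13.7 FPKM in compound mice. These ranges overlapped, with a difference of -0.10 ± 0.18 (SE). Sin3b, a scaffold of the SIN3 complex, had the highest mean FPKM of the list, at 72.0 ± 7.5 FPKM (SD, n = 4) in controls and 82.3 ± 5.0 (SD, n = 5) in compound mice (limma adjusted p = 0.476).

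Thy1, whose promoter drives the transgenes, marked every compound mouse. It was read at 305, 315, 309 and 303 FPKM in controls and at 1644, 1886, 1715, 2357 and 1858 FPKM in compound mice. The groups lay far apart, and the difference of 2.60 ± 0.09 (SE) had a limma adjusted p of 4.3e-08. The 5XFAD mice ran from 1563 to 2076 FPKM. Reads of the Thy1 parts of the transgene cassette and of the mouse gene cannot be told apart here. App was read on the mouse transcript at 233 to 255 FPKM in compound mice and 180 to 255 in controls, which overlapped (limma adjusted p = 0.476). Thy1 was the only one of 16 tested genes for APP processing and the transgene cassette that passed either rule.

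Genes of disease-associated microglia, the state described around plaques, held the largest rises. All 28 listed genes were tested and all 28 were higher in compound mice, 20 as DEGs and 14 at an adjusted p, with a median difference of 1.33. The mean log2 level of the list was 4.20 to 4.54 in controls, 5.34 to 5.56 in 5XFAD mice and 5.43 to 6.33 in compound mice. Cst7, which encodes the protease inhibitor cystatin F (chr2:150396151-150404680), was read at 0.783, 0.715, 2.22 and 0.801 FPKM in controls and at 137, 206, 112, 287 and 115 FPKM in compound mice. The groups were far apart, and the difference was 6.29 ± 0.30 (SE, limma adjusted p = 1.05e-05).

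Trem2, the lipid-sensing receptor of microglia, was read at 20.7, 14.7, 18.6 and 10.1 FPKM in controls and at 76.0, 134, 75.1, 144 and 108 FPKM in compound mice. Tyrobp, its signalling adaptor, was read at 133, 135, 153 and 132 FPKM in controls and 698, 900, 613, 1318 and 721 FPKM in compound mice. Cd68, a lysosomal membrane protein of phagocytes, was read at 29.2, 20.9, 24.3 and 12.3 FPKM and at 141, 136, 90.0, 180 and 96.2 FPKM. The 3 differences were 2.66 ± 0.25, 2.55 ± 0.19 and 2.53 ± 0.26 (SE), with limma adjusted p of 0.000745, 0.00026 and 0.00175. In each gene, compound mouse 4 was the highest, as it was in 68 of the 90 genes that rose at an adjusted p, and compound mouse 3 was the lowest in 36 of them. Mouse 4 also had the deepest library of the group, at 2.24 times control 1, and mouse 3 the shallowest, at 0.753. The part of depth in this order was not tested.

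Cd52, a small surface glycoprotein of immune cells, and Clec7a, the receptor for fungal glucans also known as Dectin-1, rose by 2.33 ± 0.34 and 2.23 ± 0.30 (SE), the latter from 0.101 to 1.399 FPKM in controls to 2.86 to 9.25 FPKM in compound mice. The 8 genes of the list that did not pass the DEG rule included the member with the highest mean FPKM, Fth1, the heavy chain of ferritin. It was read at 7674 to 8562 FPKM in controls and 7468 to 10830 in compound mice, which overlapped. Of the 12 largest rises, 2 (Wfdc17 and Bcl2a1b) were in no list. Wfdc17, a secreted protein of activated macrophages, was read at 15.0, 21.0, 21.8 and 14.9 FPKM in controls and at 96.7, 114, 73.4, 203 and 99.3 FPKM in compound mice (2.56 ± 0.26, SE, limma adjusted p = 0.00168). Bcl2a1b, a survival factor of blood cells with near-identical copies in the genome among which reads may be split, rose by 2.26 ± 0.35 (SE) to between 5.08 and 11.5 FPKM.

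Genes that mark microglia at rest were higher as well. All 16 genes of that list were tested, and all 16 were higher in compound mice, 9 as DEGs and 8 at an adjusted p, with a median difference of 0.99. Cx3cr1, the fractalkine receptor, was read at 13.4, 13.9, 13.5 and 10.4 FPKM in controls and 26.7, 31.8, 27.6, 43.6 and 30.5 FPKM in compound mice (1.25 ± 0.15, SE). Gpr34 and Csf1r, the receptor that microglia need to survive, rose by 1.27 ± 0.19 and 1.21 ± 0.19 (SE), and the 3 genes had limma adjusted p between 0.00175 and 0.0118. The difference was smaller in the defining microglial genes P2ry12, at 13.2 to 17.4 FPKM in controls and 19.8 to 28.6 in compound mice (0.58, adjusted p = 0.106), and Tmem119, at 6.50 to 8.14 and 8.24 to 16.7 FPKM (0.42, adjusted p = 0.457).

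**Figure D2:**
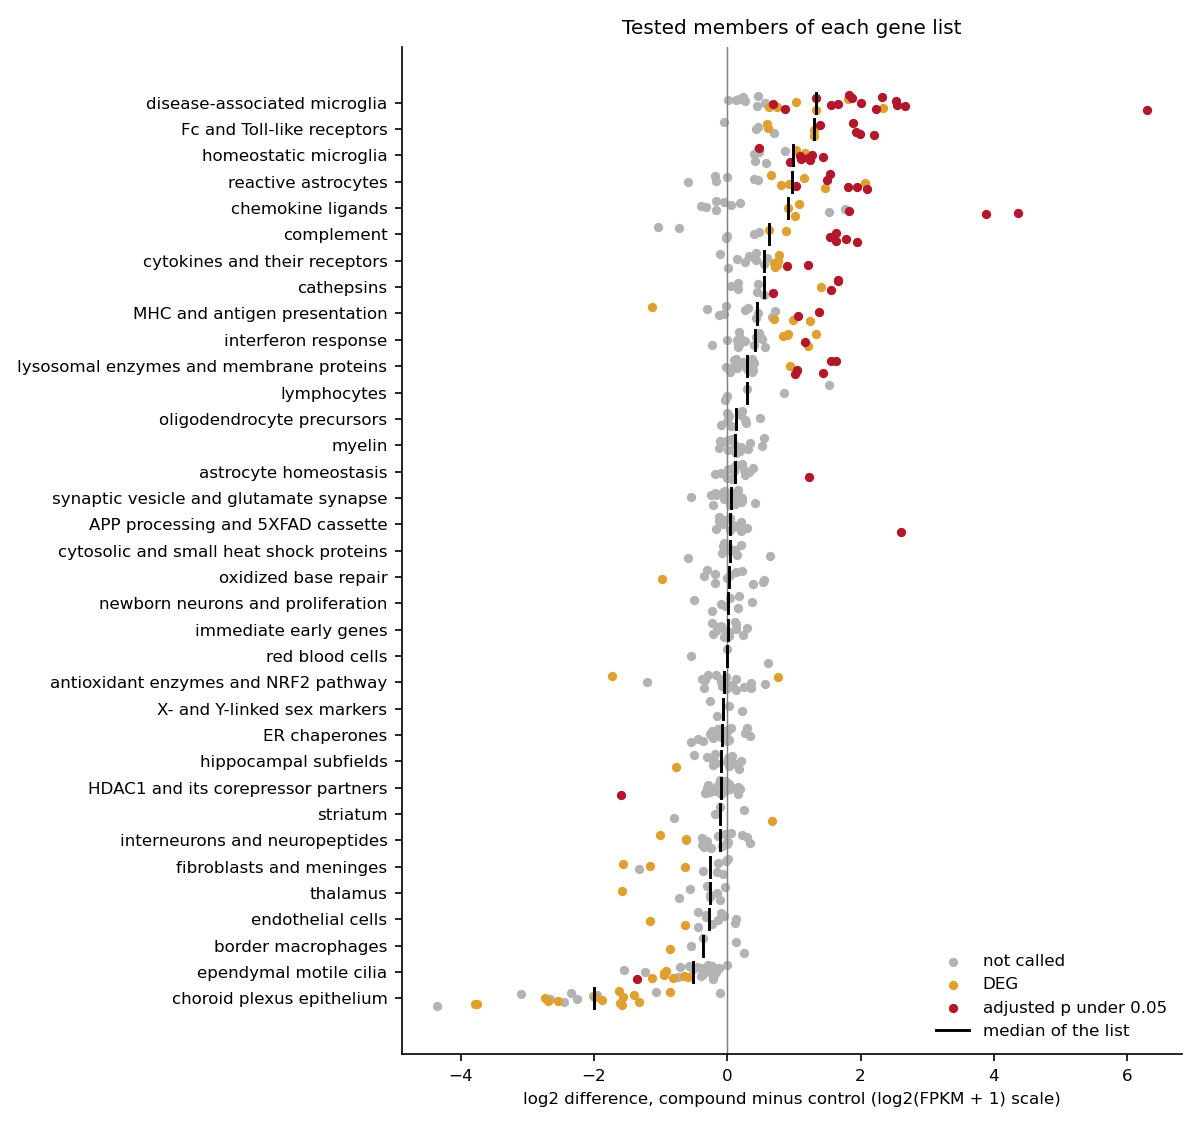
Log2 difference of compound minus control, on the log2(FPKM + 1) scale, for every tested member of 35 gene lists, ordered by the list median (black line). Grey members passed no rule, orange members were DEGs and red members had an adjusted p under 0.05. Microglial lists lie to the right, with a median of 1.33 for disease-associated microglia, and choroid plexus lies to the left, with a median of -2.0.

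Chemokines were divided. Of 15 tested chemokine ligands 6 were DEGs, all higher, and 3 of these passed the adjusted threshold. Ccl4, the ligand MIP-1β (chr11:83476086-83478185), was listed at 0 in 3 controls and at 2.74 FPKM in the other, and at 26.7, 27.9, 39.2, 25.8 and 21.1 FPKM in compound mice. Its neighbour and relative Ccl3 was read at 0, 0.238, 1.48 and 0.356 FPKM in controls and at 24.7, 17.2, 15.3, 30.6 and 16.1 FPKM in compound mice. Both had groups far apart, with differences of 4.36 ± 0.38 and 3.88 ± 0.28 (SE, limma adjusted p of 0.000609 and 5.47e-05) that depend on the pseudocount because the controls were near 0. Ccl6 rose by 1.83 ± 0.31 (SE). Ccl27a, the ligand with the highest mean FPKM, was read at 200 to 219 FPKM in controls and 159 to 259 in compound mice, which overlapped. A value of 0 in these files need not mean an absent transcript, since Hmgcs1, which most cells use to make cholesterol, was listed at 0 in all 9 mice.

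Receptors through which microglia bind antibodies and microbial products were higher in most members, with 9 of 13 tested genes as DEGs upwards, 5 at an adjusted p and a median of 1.30. Fcgr2b, the inhibitory IgG receptor, was read at 0.510, 0.582, 0.724 and 2.26 FPKM in controls and at 7.22, 8.63, 7.78, 11.0 and 5.18 FPKM in compound mice. The activating receptor Fcgr3 rose by 2.00 ± 0.18 and the shared signalling chain Fcer1g by 1.93 ± 0.17 (SE, limma adjusted p of 0.000268 and 0.000367). Of 13 tested complement genes 7 were DEGs, all higher, and 5 passed the adjusted threshold. The 3 chains of C1q, the initiator of the classical pathway, rose: C1qa from between 13.3 and 16.7 FPKM to between 48.7 and 91.8, C1qb from between 60.2 and 92.3 to between 166 and 407, and C1qc from between 29.97 and 47.1 to between 90.9 and 238. The receptor C3ar1 rose by 1.63 ± 0.24 (SE). Of 17 tested cytokines and cytokine receptors, 7 were DEGs and 2 passed the adjusted threshold, Csf1r and Tgfbr2 (0.89 ± 0.17, SE), whereas Il18, with the highest mean FPKM, differed by 0.01 ± 0.15 (SE).

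Lysosomal genes were higher in part. Of 11 tested cathepsins, the proteases of the lysosome, all 11 were higher, 5 as DEGs and 4 at an adjusted p. Ctss was read at 128, 113, 115 and 117 FPKM in controls and 338, 455, 312, 576 and 274 FPKM in compound mice (1.67 ± 0.19, SE). Ctsz, Ctsd and Ctsb rose by 1.66 ± 0.20, 1.56 ± 0.24 and 0.68 ± 0.11 (SE, limma adjusted p of 0.00317, 0.0244 and 0.0124). Of 23 tested lysosomal enzymes and membrane proteins, 7 were DEGs and 5 passed the adjusted threshold, but the list median was 0.29. Slc11a1, a metal transporter of phagocytes, rose by 1.64 ± 0.19 and Grn, the progranulin gene, by 1.04 ± 0.20 (SE). Psap, the precursor of the saposins and the member with the highest mean FPKM, was read at 203 to 275 FPKM in controls and 229 to 270 in compound mice, which overlapped.

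Antigen presentation and interferon genes were less uniform. Of 16 tested genes for presentation on MHC molecules 5 were DEGs upwards and 1 downwards. B2m, the light chain of MHC class I, was read at 347, 238, 334 and 301 FPKM in controls and 512, 755, 612, 865 and 497 FPKM in compound mice (1.07 ± 0.18, SE, limma adjusted p = 0.0256), and the immunoproteasome subunit Psmb8 rose by 1.38 ± 0.21 (SE, adjusted p = 0.0118). H2-Eb1, an MHC class II chain, was the DEG that fell, at 3.14, 1.62, 12.1 and 3.42 FPKM in controls against 1.98, 2.02, 1.11, 1.402 and 0.386 FPKM in compound mice, which overlapped (adjusted p = 0.347). Of 24 tested interferon response genes 22 were higher, but 6 were DEGs and only Irf8, a transcription factor of microglia, passed the adjusted threshold (1.16 ± 0.22, SE). The mean log2 level of the list was 1.82 to 2.14 in controls and 2.10, 2.44, 2.44, 3.21 and 1.97 in compound mice 1 to 5, so that mouse 4 stood highest and mice 1 and 5 lay within the range of the controls. Ifitm3, the one with the highest mean FPKM, ran from 94.0 to 219 FPKM in controls and from 121 to 440 in compound mice.

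Promoters of the genes that rose were searched for the core of the site bound by PU.1, a transcription factor that microglia depend on, spelled GAGGAAGT on either strand. The windows ran from 250 bases before to 50 bases after the start site in RefSeq (GRCm38.p6), taking the first promoter listed per gene, and 10597 of the 14348 genes tested had one. The core was in 27 of 235 promoters of DEGs that rose (11.5%), in 10 of 206 of DEGs that fell (4.85%), in 2.83% of the promoters of all genes tested and in 3.28% of the 27025 promoters in the table. It was in 7 of the 64 promoters of genes that rose at an adjusted p. Those 7 are shown in windows of 60 bases, 5′ to 3′ along the gene, because they are the rises in which a known microglial site could be read, and capitals mark the core or its reverse complement.
Bcl2a1b: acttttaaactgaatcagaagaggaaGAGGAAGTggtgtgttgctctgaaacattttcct
C1qc: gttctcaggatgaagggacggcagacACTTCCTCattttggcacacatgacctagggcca
Ctss: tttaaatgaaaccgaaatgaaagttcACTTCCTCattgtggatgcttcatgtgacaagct
Slamf9: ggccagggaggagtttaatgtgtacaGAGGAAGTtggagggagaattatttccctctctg
Samsn1: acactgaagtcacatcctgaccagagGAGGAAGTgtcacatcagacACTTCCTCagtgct
Cd53: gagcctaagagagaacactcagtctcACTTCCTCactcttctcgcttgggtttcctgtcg
Apbb1ip: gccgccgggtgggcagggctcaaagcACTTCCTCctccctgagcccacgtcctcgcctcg

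In GRCm38.p6 these lie at chr9:89199099-89199158 (plus strand), chr4:136893076-136893135 (minus), chr3:95526758-95526817 (plus), chr1:172475326-172475385 (plus), chr16:75909283-75909342 (minus), chr3:106790110-106790169 (minus) and chr2:22774306-22774365 (plus), in the order shown. The core began 148 bases before the start site in Bcl2a1b and 195 before it in C1qc, and within 8 bases of it in Ctss, Slamf9, Cd53 and Apbb1ip. Samsn1 held 2 copies, the first 50 bases before the start site. A match of letters is a description and not a measured binding site. Of the 24 disease-associated microglia genes with a promoter 1 held it, and of the 11 homeostatic microglia genes with a promoter 0 did. Guanine-rich motifs were searched because the study examined them in promoters of lower genes. The study scored known motifs with HOMER in a wider window around the start site. The shares below count fixed letters in a shorter window, so they cannot be set against its enrichment. The GC box GGGGCGGGG was in 37 of 235 promoters of DEGs that rose (15.7%) and 32 of 206 of DEGs that fell (15.5%), against 21.3% of the promoters of all genes tested and 11.6% of all promoters in the table. It was in 4 of the 64 promoters of genes that rose at an adjusted p (6.25%). Its core GGGCGG, which the longer motif contains, was in 109 and 103 of the DEG promoters and in 20 of those 64 (31.2%), against 62.8% and 35.9%. The median GC content of these promoters was 55.7% for DEGs that rose, 58.0% for DEGs that fell and 60.7% for all genes tested.

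Of the astrocyte lists, that of reactive genes held most of the calls. Of 18 tested genes of reactive astrocytes 12 were DEGs, all higher, and 6 passed the adjusted threshold, with a median of 0.98. Gfap, the intermediate filament of astrocytes (chr11:102748650-102762226), was read at 26.6, 23.5, 25.96 and 24.5 FPKM in controls and at 89.8, 120, 98.6, 176 and 89.0 FPKM in compound mice (2.10 ± 0.18, SE, limma adjusted p = 0.000224). Lcn2, which encodes lipocalin 2, was listed at 0, 0.215, 0.893 and 0 FPKM in controls and at 7.42, 2.28, 5.01, 2.53 and 3.19 FPKM in compound mice. Serpina3n, a protease inhibitor, rose by 1.82 ± 0.33 and the complement gene C4b by 1.55 ± 0.26 (SE, limma adjusted p of 0.0455 and 0.0217). Of 14 genes for the resting functions of astrocytes 11 were higher, with a median of 0.12, and their summed level was 1547 to 1667 FPKM in controls and 1724 to 1897 in compound mice, without overlap. Only Aqp4, the water channel of astrocyte endfeet, passed either rule. It was read at 24.0, 20.9, 23.2 and 23.6 FPKM in controls and at 61.5, 52.6, 43.2, 79.2 and 45.3 FPKM in compound mice (1.23 ± 0.16, SE, limma adjusted p = 0.00317). Aldoc, the one with the highest mean FPKM, was read at 570 to 651 and 614 to 727 FPKM, which overlapped.

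None of 23 tested genes of synaptic vesicles and glutamate synapses, 14 immediate early genes and 8 genes of newborn neurons and proliferation passed either rule, and their medians were 0.06, 0.00 and 0.01. Snap25, a vesicle fusion protein, was read at 722 to 861 FPKM in controls and 768 to 871 in compound mice. Of 18 interneuron and neuropeptide genes 2 were DEGs, both lower. Cort, the somatostatin-like peptide cortistatin, was read at 19.7, 18.5, 20.6 and 9.92 FPKM in controls and 7.63, 9.05, 9.65, 6.50 and 6.39 FPKM in compound mice without overlap (-1.01 ± 0.21, SE, limma adjusted p = 0.0546). Tac1, the substance P precursor, differed by -0.63 ± 0.17 (SE, adjusted p = 0.18). None of 14 myelin genes and 10 genes of oligodendrocyte precursors passed either rule, and Mbp was read at 616 to 684 FPKM in controls and 619 to 999 in compound mice. Of 14 genes of hippocampal subfields only Dsp, a desmosome gene of the dentate gyrus, was a DEG (-0.76 ± 0.27, SE, adjusted p = 0.31).

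Repair, antioxidant and chaperone genes, which the study connects to oxidized DNA, passed a rule in few members. Of 12 tested genes for the repair of oxidized bases 1 was a DEG. It was Apex1, the endonuclease that cuts at the site left by the removed base, at 3.61, 3.55, 5.52 and 4.73 FPKM in controls and 3.21, 2.42, 1.47, 1.61 and 0.513 FPKM in compound mice, without overlap (-0.98 ± 0.27, SE, limma adjusted p = 0.18). Ogg1, the glycosylase for 8-oxoguanine, was under the filter. It was listed at 0.687, 1.15, 0.217 and 0.780 FPKM in controls and at 0, 0, 0.304, 0.613 and 0.141 FPKM in compound mice, which overlapped (two-sided exact permutation test, p = 0.0556, where 0.00794 is the smallest p that 4 against 5 mice can give). Of 25 antioxidant and NRF2 pathway genes 1 was higher and 1 lower as a DEG, the peroxiredoxin Prdx6 (0.77 ± 0.17, SE, adjusted p = 0.087) and the glutathione transferase Gstm2 (-1.73 ± 0.65, SE, adjusted p = 0.399). With the choroid plexus covariate described below, no gene of these 2 lists was a DEG downwards, so Apex1 and Gstm2 lost that call. In that fit 1 repair gene and 3 antioxidant genes were DEGs upwards. None of 18 chaperones of the endoplasmic reticulum and 10 cytosolic heat shock proteins passed either rule. Hsp90b1 was read at 147 to 182 FPKM in controls and 102 to 151 in compound mice, with a difference of -0.37 ± 0.11 (SE, adjusted p = 0.235).

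Choroid plexus genes, which were among the falls, divided the mice largely along genotype, except for control 1 and compound mouse 1. Of the 290 DEGs that fell, 25 belonged to lists of choroid plexus, ciliary or meningeal genes and 254 belonged to no list. The plexus makes cerebrospinal fluid, and its epithelium is not part of the hippocampus. Of 24 tested plexus genes all 24 were lower in compound mice and 14 were DEGs, with a median of -2.0, but none passed the adjusted threshold with all 9 mice. Ttr, the transthyretin gene, was read at 576, 17485, 20146 and 12903 FPKM in controls and at 13910, 160, 148, 265 and 58.9 FPKM in compound mice. Control 1 was thus low like most compound mice, and compound mouse 1 was high like most controls (-4.35 ± 1.87, SE, limma adjusted p = 0.478). Kcnj13, a potassium channel of the plexus, showed the same division at 5.35, 96.6, 146 and 87.8 FPKM and 75.2, 0.518, 0.710, 1.67 and 0.659 FPKM, as did Folr1, a folate receptor, and Otx2, a transcription factor. The summed plexus genes ran from 719 to 22239 FPKM in controls and from 128 to 14936 in compound mice. Control mice 2 to 4 had more Ttr than any Hdac1 cKO or 5XFAD mouse, in which it ran from 56.5 to 1608 and from 53.8 to 7892 FPKM.

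**Figure D3:**
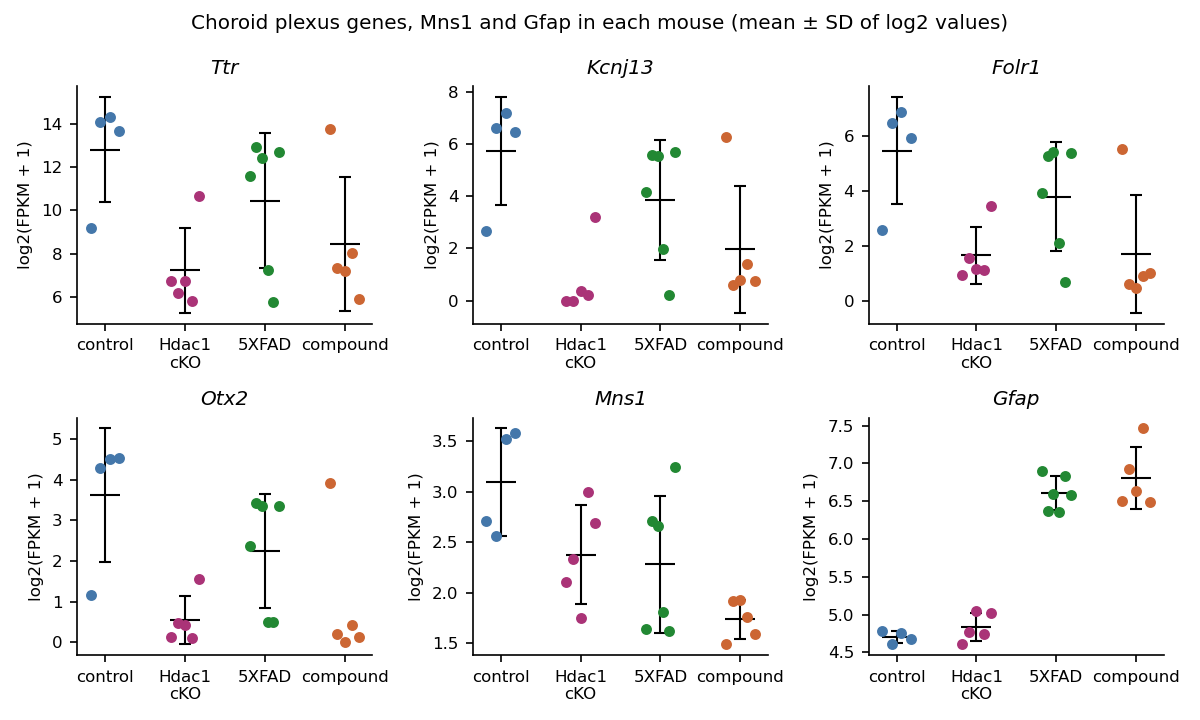
Log2(FPKM + 1) of each mouse in the 4 hippocampal groups for 4 choroid plexus genes, the ciliary gene Mns1 and the astrocyte gene Gfap. Bars give the mean ± SD of groups with no value listed at 0. Ttr splits both groups, with control 1 at 576 FPKM and compound mouse 1 at 13910 FPKM, whereas the Gfap values of compound and control mice do not overlap.

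The mean log2 level of the plexus list was added to the model as a covariate, a fit chosen after the data were seen. This level was 2.02, 4.89, 5.15 and 4.58 in controls and 4.32, 1.37, 1.42, 1.65 and 1.29 in compound mice. It ran partly with genotype, so the covariate also takes up part of the group difference. Whether a gene that lost its call follows the plexus cannot be told from this fit. The targeted gene Hdac1 lost its adjusted call too (-1.47, limma adjusted p = 0.0824). In this fit 225 of the 318 DEGs that rose and 96 of the 290 DEGs that fell kept their call. At an adjusted p (limma), 26 of the 90 rises and none of the 5 falls kept it. All 95 genes kept their direction, and 85 of the 90 rises and all 5 falls were still DEGs. The median of the lists was then 1.47 for disease-associated and 1.03 for homeostatic microglia, while 6 rather than 14 genes of the first and 1 rather than 8 of the second passed the adjusted threshold. H2-Eb1 and Dsp, the only DEGs that fell in their lists, were not DEGs downwards with this covariate. Without control 1, the fit called 33 falls at an adjusted p, and 23 of the 24 plexus genes were DEGs, 2 of them at an adjusted p.

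Ciliary genes of the ependyma, the layer that lines the ventricle beside the plexus, were lower in all 29 tested members, 8 as DEGs, with a median of -0.51. Their summed level ran from 361 to 660 FPKM in controls and from 308 to 488 in compound mice. Without control 1, 13 members were DEGs downwards, and 2 were lower at an adjusted p. With the plexus covariate 2 members were DEGs downwards and 1 upwards, and the median was -0.16. Tmem212, a DEG with no mouse left out and no covariate, was read at 24.5, 32.1, 32.7 and 75.6 FPKM in controls and 25.7, 6.92, 26.1, 23.7 and 11.0 FPKM in compound mice (adjusted p = 0.457). Mns1, a structural protein of motile cilia (chr9:72286336-72306381), was the exception that passed the adjusted threshold with no mouse left out. It was read at 5.55, 4.89, 10.5 and 11.0 FPKM in controls and 1.81, 2.77, 2.79, 2.39 and 2.00 FPKM in compound mice. The groups did not overlap (-1.36 ± 0.23, SE, limma adjusted p = 0.0208). The difference was -1.30 with the plexus covariate, -1.21 without control 3 and -1.20 without control 4, and the adjusted p (limma) was then 0.243, 0.0753 and 0.0731.

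The promoter of Mns1 is shown because RFX factors govern ciliary genes and 15 of the 24 ciliary genes with a promoter (62.5%) held their short recognition motif GTTGCC on either strand, against 13.2% of all genes tested and 12.7% of all promoters in the table. The motif was in 32 of 206 promoters of DEGs that fell (15.5%) and 24 of 235 of DEGs that rose (10.2%). Of 17 plexus genes with a promoter 5 held it (29.4%). The promoter of Mns1 spans chr9:72438279-72438578 on the plus strand of GRCm38.p6. Capitals mark its 2 copies of the motif, the first of which begins 72 bases before the start site.
Mns1: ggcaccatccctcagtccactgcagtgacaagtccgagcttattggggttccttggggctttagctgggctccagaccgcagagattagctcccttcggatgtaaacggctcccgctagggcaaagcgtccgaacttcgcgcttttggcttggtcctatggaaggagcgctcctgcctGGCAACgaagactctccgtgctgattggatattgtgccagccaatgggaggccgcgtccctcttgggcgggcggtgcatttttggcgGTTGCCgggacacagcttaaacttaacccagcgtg

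The other falls at an adjusted p were in no list. The uncharacterized gene 4833427G06Rik was read at 2.14, 1.96, 3.55 and 1.83 FPKM in controls and at 0.562, 0, 0.712, 0.479 and 0 FPKM in compound mice (-1.33 ± 0.23, SE). Aaed1, a thioredoxin-like protein, was read at 2.79, 1.46, 3.77 and 2.45 FPKM and at 0.418, 0.386, 0.529, 0.712 and 0.736 FPKM (-1.18 ± 0.21, SE). Dnajc24, which takes part in the synthesis of the modified histidine diphthamide, was read at 20.8, 23.7, 17.95 and 15.97 FPKM and at 10.5, 13.1, 11.9, 12.9 and 10.3 FPKM (-0.68 ± 0.13, SE). None of the 3 overlapped between the groups, and their limma adjusted p was 0.025, 0.0247 and 0.0438. Dnajc24 lost its call in each of the 9 fits without 1 mouse, 4833427G06Rik in 6 and Aaed1 in 5 of them, and Hdac1 was the only fall called in all 9. In 5XFAD and Hdac1 cKO mice 4833427G06Rik ran from 0 to 2.985 and from 0 to 0.684 FPKM, Aaed1 from 0.370 to 1.33 and from 0 to 2.004 FPKM, and Dnajc24 from 7.45 to 18.1 and from 12.4 to 16.04 FPKM.

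Genes of other cell types that could lie in or beside the dissected tissue fell in a few members. Of 12 endothelial genes 2 were DEGs, both lower, of which Slco1c1, a thyroid hormone transporter also made by the plexus, differed by -1.16 ± 0.25 (SE, limma adjusted p = 0.0687) and Pecam1, at 0.549 to 3.15 and 0.315 to 0.528 FPKM, by -0.64 ± 0.27. Of the 12, 10 were lower, with a median of -0.27. Their mean log2 level was 2.67 to 2.89 in controls and 2.35 to 2.58 in compound mice, without overlap, and their summed level was 158 to 172 and 152 to 169 FPKM, which overlapped. Of 10 genes of fibroblasts and meninges 3 were DEGs, all lower (Igfbp2, Ogn and Slc6a13), of 9 thalamic genes 1 (Zic1, at 1.85, 2.98, 9.96 and 15.7 FPKM in controls and 0.848 to 2.76 in compound mice) and of 5 genes of border macrophages 1 (Pf4). None of these had an adjusted p under 0.05, and the summed thalamic level ran from 34.2 to 104 FPKM in controls and from 31.9 to 38.8 in compound mice. With the plexus covariate no endothelial, thalamic or border macrophage gene was a DEG, but the medians of these 3 lists changed little. They were -0.274, -0.258 and -0.370 without the covariate and -0.276, -0.288 and -0.342 with it. In the fit with the covariate 1 fibroblast and meninges gene was a DEG downwards, and the median of its list went from -0.26 to 0.02. None of 5 lymphocyte genes, 3 red blood cell genes and 4 sex-linked genes passed either rule, and 1 of 5 striatal genes, Drd1a, was a DEG upwards. The part of these cell types in the falls was not tested.

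Compound mice were next set against 5XFAD mice, which had the transgenes and an intact Hdac1 gene. Of 14326 genes tested, 1 (0.00698%) had a limma adjusted p under 0.05, and it was Hdac1 (-1.66 ± 0.16, SE, adjusted p = 0.000785). At an unadjusted p under 0.05 there were 947 genes (6.61%). By the DEG rule 99 were higher in compound mice (0.691%) and 85 lower (0.593%). The control mice did not enter this fit, but genes that were picked for high values in compound mice share those values with it. Of the 90 genes that rose against controls, 83 were higher in compound than in 5XFAD mice, by a median of 0.31. That count rests on the same 5 compound libraries and gives no test.

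The smallest p among genes higher than in 5XFAD mice belonged to Slamf9, a surface receptor of the SLAM family on myeloid cells. It was read at 4.78, 6.61, 6.05, 7.56 and 5.81 FPKM in compound mice and at 2.72 to 3.93 FPKM, with a median of 2.80, in the 6 5XFAD mice (0.83 ± 0.13, SE, limma adjusted p = 0.0888). Myadml2 and Ccl4 had the same adjusted p. Myadml2 ran from 3.91 to 7.45 FPKM in compound mice and from 1.68 to 2.85 in 5XFAD mice (1.02 ± 0.16, SE). Ccl4 ran from 21.1 to 39.2 FPKM in compound mice and from 6.75 to 17.4 FPKM, with a median of 10.3, in 5XFAD mice (1.27 ± 0.21, SE). None of the 3 passed the adjusted threshold. Cyr61, a secreted matrix protein, was next, with a difference of 0.82 ± 0.15 (SE, adjusted p = 0.234). Fkbp1b, a regulator of calcium release channels, was read at 96.9, 84.7, 91.1, 95.2 and 106 FPKM in compound mice and 63.7 to 77.7 in 5XFAD mice (0.45 ± 0.08, SE, adjusted p = 0.234). Its level in Hdac1 cKO mice was 86.4 to 111 FPKM and in controls 69.1 to 72.8, so that the groups with Nestin-Cre lay above the groups without it. Aqp4 ran from 22.5 to 42.6 FPKM in 5XFAD mice, below every compound mouse, and its difference of 0.91 ± 0.17 (SE) had the same adjusted p of 0.234.

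Lower than in 5XFAD mice were, after Hdac1, Fam25c, which was listed at 0 in all 5 compound mice and in 2 controls, Dio3, the deiodinase that inactivates thyroid hormone (-0.98), Cdyl, a chromodomain corepressor (-0.54), and Btc, the growth factor betacellulin (-0.76). Their adjusted p did not pass the threshold (limma). In the lists, the median difference from 5XFAD mice was 0.28 over 28 genes of disease-associated microglia, of which 26 were higher and 3 were DEGs, and 0.30 over 16 genes of homeostatic microglia, of which 15 were higher and 1 was a DEG. Over all genes tested the median was 0.00 and 49.9% were higher. Reactive astrocyte genes had a median of 0.05, with 9 of 18 higher and no DEG, and Gfap ran from 81.3 to 118 FPKM in 5XFAD mice against 89.0 to 176 in compound mice. The genes for presentation on MHC molecules had a median of -0.17, with 5 DEGs, all lower. They were the class II genes H2-Ab1, H2-Aa and H2-Eb1, the invariant chain Cd74 and the peptide transporter subunit Tap1, of which all but H2-Eb1 were named after their values were seen. H2-Ab1 was read at 8.13, 6.29, 4.52, 7.06 and 5.15 FPKM in compound mice and from 5.75 to 141 FPKM, with a median of 39.0, in 5XFAD mice (-2.29, limma unadjusted p = 0.00591), so the spread lay among the 5XFAD mice and the groups overlapped. Plexus genes were all lower than in 5XFAD mice, 24 of 24, with a median of -0.81 and no DEG.

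**Figure D4:**
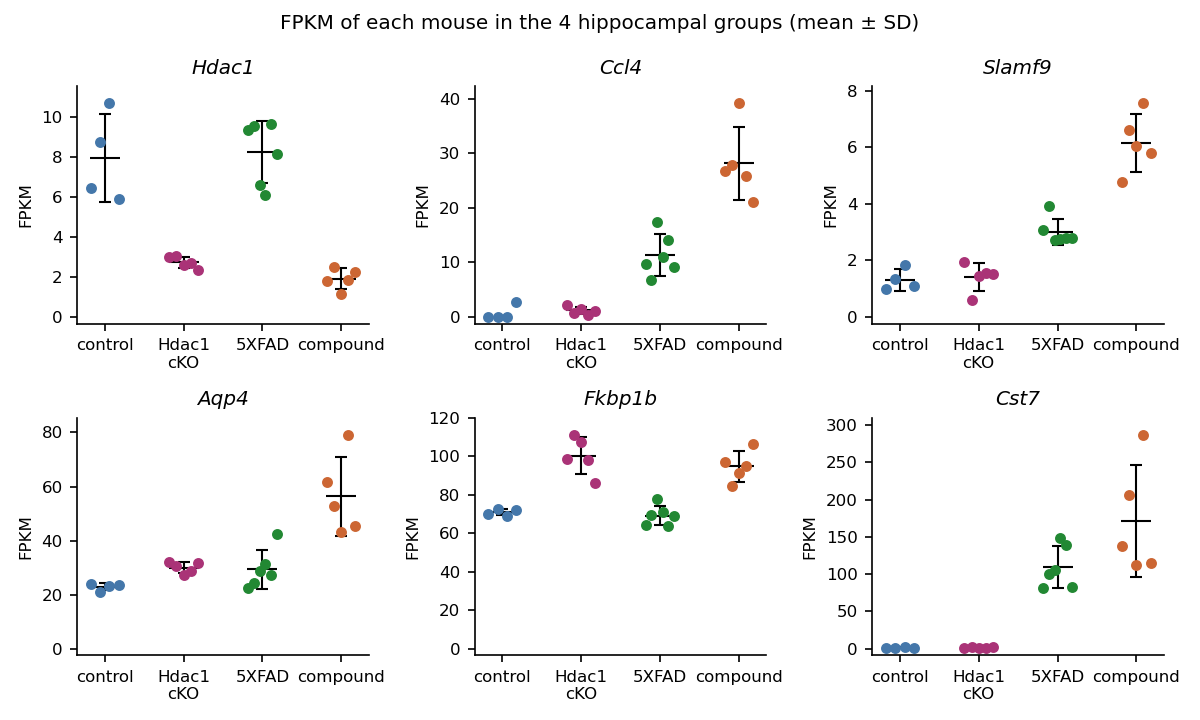
FPKM of each mouse in the 4 hippocampal groups, control (4 mice), Hdac1 cKO (5), 5XFAD (6) and compound (5), for 6 genes. Bars give the mean ± SD of groups with no value listed at 0. Hdac1 is low in both groups with Nestin-Cre, Fkbp1b is high in them, and Ccl4, Slamf9 and Aqp4 are higher in compound mice, at 21.1 to 39.2, 4.78 to 7.56 and 43.2 to 79.2 FPKM, than in any 5XFAD mouse.

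The last question was whether the compound difference departed from the sum of those of the single genotypes on the log2 scale. Over the 20 hippocampal mice, 0 of 14389 genes had an adjusted p under 0.05 for this interaction and 1290 had an unadjusted p under 0.05 (8.97%, limma). The median departure from the sum was 1.69 over 24 plexus genes, of which 4 had an unadjusted p under 0.05 (limma). It was 0.63 over 28 ciliary genes, of which 10 had one. Control mice 2 to 4 were high in plexus genes, and the part of plexus content in this comparison was not tested. The smallest p among genes above the sum belonged to Cd63, a tetraspanin of endosomes that was read at 305 to 454 FPKM in controls and 327 to 609 in compound mice, then Katna1, Smim11, 2810049E08Rik and Pttg1ip. The smallest among genes below the sum belonged to Hrk, an apoptosis activator, then Numbl, Sptbn4, Pygo2 and Mcat. Hrk was read at 4.86 to 8.81 FPKM in compound mice and averaged 8.21 FPKM in 5XFAD and 8.16 in Hdac1 cKO mice.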

How the data were processed

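RNA of whole hippocampus was sequenced by a method that reads the 3′ ends of transcripts. Alignment by the authors used TopHat2, and their transcript abundances came from Cufflinks 2.0.0 on the mm9 annotation of UCSC. The deposited FPKM values were used as they stand. The tables hold no read numbers, so no count model, counting interval or detection limit was computed.

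Values were analysed as log2(FPKM + 1) with limma 3.58.1 in R 4.3.3 (two-sided, trend and robust options, no covariate) for genes whose mean in the groups compared reached 0.5 FPKM. The DEG thresholds were those of the study's methods, and the test behind its p was not given in the sources used here. Adjusted p-values are Benjamini-Hochberg values over all genes tested. Single genes were also compared by an exact permutation test over 126 assignments of the mice. Labels name each sample a library of 1 genotype and say no more of its replication, so p-values measure the spread between these samples. Tables and promoter searches were made in Python 3.11.15 with pandas 2.3.3 and scipy 1.17.1. Gene coordinates in mm9 came from GENCODE and promoters from RefSeq. The fits were tested on simulated data. There the DEG rule called many more unchanged genes than the adjusted threshold did, as a rule without correction will. Genes were drawn independently of each other, so the simulation gives no error rate for these data.

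The genes named were the 12 largest rises and falls at an adjusted p whose groups did not overlap (all 5 falls), Hdac1, Hdac2, Ogg1, Thy1, App, Gfap, Ttr and another gene of the design, up to 4 members of each list by size of change with the member of highest mean FPKM, and the 5 smallest p in each direction of the other comparisons. Cell type markers, P2ry12, Tmem119, MHC class II genes other than H2-Eb1, Tap1, Hmgcs1 and the genes with a printed promoter other than Mns1 were added after values were seen. Members, lists and tests were chosen with earlier results of these data known. Alternatives were the pseudocount, the filter, the scaling, the moderation, all 4 groups in 1 fit, a replicate block and leaving out each mouse. Some genes that the rule named are not reported here. Sorted nuclei and ChIP-seq samples were not used here.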

Additional observations from a re-analysis of the deposited data

Results flagged for a closer look

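In 44 groups of 4 or 5 mice, 1 mouse stood far from the others of its group in 5 cases, by a test of the gap over the range of log2(FPKM + 1) that chance passes in about 1 in 20 groups. Ttr held 2 of them, control 1 at 576 FPKM, below the other controls, and compound mouse 1 at 13910 FPKM, above the other compound mice. Control 3 was high for Cst7 at 2.22 FPKM and for Tyrobp at 153 FPKM. Control 4 was the only control above 0 for Ccl4, at 2.74 FPKM.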

How the results depend on the processing

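All 95 genes called at an adjusted p kept their direction in 18 alternative settings, but how many passed moved with the setting. The 90 rises and 5 falls became 181 and 39 with all 4 hippocampal groups in 1 fit, 33 and 1 with a replicate block, and 29 and 1 with the plexus covariate added after the data were seen. Without limma's trend and robust options 57 rises were called, and with a filter at 1 FPKM 8 falls. Leaving out 1 mouse at a time gave 39 to 94 rises and 2 to 33 falls. The rises fell to 39 without control 4, 51 without control 2, 60 without control 3 and 47 without compound mouse 2, and the falls moved to 33 without control 1, 3 without control 3, 2 without control 4, 10 without compound mouse 1, 2 without compound mouse 2 and 11 without compound mouse 3. In all 9 such fits 36 of the 95 genes were called. Against 5XFAD mice, 3 genes were called with all 4 groups in 1 fit and 1 to 4 with a mouse left out (4 without 5XFAD mouse 3 or compound mouse 5). For the interaction it was 0 to 1. The cause of these shifts was not tested. The replicate numbers did not pair the mice: deviations of same-numbered control and compound mice correlated between -0.09 and 0.04, and 1 of 4 control mice correlated best with its own number. The depth of single libraries is known only relative to control 1, so values listed at 0 limit the falls of low genes.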

Other observations

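Genes of cholesterol synthesis, a list chosen after their values were seen, were higher in compound mice in 17 of 19 tested members, with a median of 0.41 on the log2(FPKM + 1) scale. Of these, 6 were DEGs, none of them lower, and 3 had a limma adjusted p under 0.05. Sqle, the squalene epoxidase, was read at 21.6, 21.8, 25.2 and 22.5 FPKM in controls and at 37.4, 36.8, 45.4, 46.9 and 38.1 FPKM in compound mice (0.81 ± 0.11, SE, limma adjusted p = 0.00318). Msmo1, a sterol oxidase, ran from 47.5 to 51.9 FPKM in controls and from 61.2 to 84.4 in compound mice (limma adjusted p = 0.0324, reaching 0.114 with a mouse left out). Neither overlapped between the groups. Sqle ran from 32.3 to 40.5 FPKM in 5XFAD mice and from 19.2 to 23.9 in Hdac1 cKO mice.

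The metallothioneins Mt1 and Mt2, which bind zinc and copper and were also chosen after their values were seen, rose by 0.61 ± 0.11 and 0.88 ± 0.15 (SE, limma adjusted p of 0.0277 and 0.0324, reaching 0.114 and 0.119 with a mouse left out), whereas Mt3, the form of neurons, was read at 42.4 to 54.0 FPKM in controls and 37.7 to 83.8 in compound mice. Syngr1, a synaptic vesicle protein that was in no list, was read at 55.3, 57.5, 61.0 and 58.3 FPKM in controls and at 158, 136, 113, 159 and 121 FPKM in compound mice (1.22 ± 0.11, SE, limma adjusted p = 0.00026). It ran from 67.5 to 123 FPKM in 5XFAD mice and from 55.0 to 63.7 in Hdac1 cKO mice.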
